A study of Rattus norvegicus with 24 samples.

Results

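The expression of 10 genes of the neuronal cytoskeleton and of axon growth was followed after traumatic brain injury (TBI). They are the neurofilament genes Nefl, Nefm, Nefh and Ina, the microtubule genes Map2, Map1b, Tubb3 and Stmn2, and the growth genes Gap43 and Sprr1a. Each was found by its name among 26641 named loci of 42334 in the count table, and all 10 were found. Where a name had more than 1 locus, the locus with the highest mean over the 24 libraries was taken, which applied to Nefm alone. The messenger RNA came from adult male Sprague-Dawley rats, 6 with TBI and 6 sham-operated, with 1 library of the perilesional cortex and 1 of the ipsilateral thalamus from each rat, taken 3 months after surgery. TBI was lateral fluid-percussion injury, a pressure pulse on the exposed dura of 1 side, and the sham-operated rats had the same anaesthesia and craniectomy without the pulse. The TBI rats were not a random draw of injured animals, because they had been chosen for signs of chronic inflammation around the lesion on magnetic resonance imaging. Separate rats make the replicates within a group, and the regions of a rat share its number.

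Neurofilaments are the intermediate filaments of neurons. They fill large myelinated axons, set axon calibre and are built from the light, medium and heavy chains (Nefl, Nefm, Nefh) together with alpha-internexin (Ina), and their proteins are measured in fluids as markers of axonal damage. Microtubules are made of tubulins such as Tubb3, are stabilised by proteins such as Map2 in dendrites and Map1b in axons, and are destabilised by stathmins such as Stmn2. Gap43 is a growth cone protein, and Sprr1a is a small proline-rich protein of skin that injured sensory and motor neurons are known to switch on when they regrow axons.

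The libraries held 30568927 to 54608922 fragments, and group medians ran from 36879241 (sham cortex) to 45279926 (TBI cortex). Values are normalized counts, in which the fragments of a locus are divided by the size factor of the library. A floor of 3 fragments, the limit that a count of 0 allows, equals 2.06 to 3.76 normalized counts and covers counting error only. Summed thalamic identity genes such as Tcf7l2 and Prkcd lay between 55499 and 106552 in the thalamus libraries and between 3122 and 4197 in the cortex libraries. The thalamus libraries therefore carried the markers of the region on their labels. In thalamus this sum was 55499 to 66904.6 after TBI and 73488.2 to 106552 in sham-operated rats. There 5 of the 6 tested were called lower in the comparison below, beside 20.9% of all tested loci. Summed cortical identity genes in thalamus were 8929 to 12221 after TBI and 12928 to 21006 in sham-operated rats. The part of these differences in the thalamic falls was not tested. The thalamus library of TBI rat 45 stood apart with 261683 normalized counts over 7 choroid plexus genes, against at most 1821 in the other TBI thalamus libraries, and its cortex library was also the highest of its group at 32412.8. Sham thalamus libraries reached 107768 in that sum. Without both libraries of rat 45, 7 of the genes still fell in each region.

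Groups were compared by limma on log2(normalized count + 1), and a change was called where the p adjusted by Benjamini-Hochberg over all tested loci was under 0.05. The log2 fold changes carry the added 1, so that those of low genes are understated. The question of the first comparison was which transcripts differed between TBI and sham-operated rats in each region. In perilesional cortex 7 of the 10 genes fell and none rose, where 14.9% of 15493 tested loci fell and 14.3% rose. In ipsilateral thalamus 7 of the 9 genes tested fell and none rose, where 20.9% of 15564 tested loci fell and 14.5% rose. The neurofilament genes, Map1b and Gap43 fell in both regions, Map2 fell in cortex and Tubb3 in thalamus. Under scaling to neuronal markers (given after the single genes) the thalamic values of Map1b, Gap43 and Tubb3 turned positive. The cortical falls of Map2, Map1b and Gap43 no longer passed under that scaling. Among all called loci 50.9% were lower after TBI in cortex and 59.0% in thalamus, and in thalamus this share was 45.7% under TMM scaling and 47.7% under upper quartile scaling. The median log2 fold change of all tested loci was −0.0096 in cortex and −0.023 in thalamus.

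All 4 neurofilament genes fell in both regions, with no overlap between the groups. Nefl, the light chain on which filaments assemble, was listed on chromosome 15 at 46792203 to 46797576. The files state no genome build for these positions. The methods name RGSC3.4 as the genome of the alignment, with the annotation of Rnor_5.0, so the build of the positions was not settled. Its lowest, median and highest normalized counts were 17882, 21727 and 25631.5 in TBI cortex and 31276, 31861 and 32189 in sham cortex. In thalamus they were 17436.5, 19890 and 21705 after TBI and 27018, 31275 and 36185 in sham-operated rats. The highest TBI value of each region lay below the lowest sham value. The sham cortex libraries were close together at 31771 ± 370.0 (SD, n = 6), whereas TBI cortex spread over 21658.5 ± 3070.2 (SD, n = 6). The TBI mean was 68.2% of sham in cortex and 62.2% in thalamus, with log2 fold changes of −0.56 (SE 0.076, limma adjusted p = 0.000111) and −0.68 (SE 0.075, limma adjusted p = 1.33e-05).

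Nefm encodes the medium chain and was listed on chromosome 15 at 46710595 to 46741967, next to Nefl. In cortex the lowest, median and highest values were 5031, 6897 and 8121 after TBI and 11118, 11921 and 14246 in sham-operated rats. In thalamus they were 5929, 7044 and 7708 and 11839, 14165 and 16022. The groups were separate in both regions, and the TBI mean was 54.8% of sham in cortex and 49.2% in thalamus. The log2 fold changes were −0.89 (SE 0.117, limma adjusted p = 9.14e-05) and −1.02 (SE 0.078, limma adjusted p = 5.53e-07). A second locus of the same name and span had a mean of 2186 over the 24 libraries, against 9987 for the locus used, and fell by less, with log2 fold changes of −0.26 in cortex (limma adjusted p = 0.0126) and −0.25 in thalamus (limma adjusted p = 0.00164). The files give no strand for these loci, so an antisense transcript and a second model of the gene cannot be told apart there.

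Nefh, the heavy chain whose phosphorylated tail sidearms project from the filament, showed the largest drop of the 10 genes. It was listed on chromosome 14 at 85859190 to 85869178. Its lowest, median and highest values were 2826, 3969 and 5198 in TBI cortex and 6524, 7052 and 8349.7 in sham cortex. The same values in thalamus were 4081, 5899.6 and 7109.6 after TBI and 11966, 15587 and 18126 in sham-operated rats. TBI rats thus lay under every sham-operated rat, and in thalamus the highest TBI library stood far below the lowest sham library. The TBI mean was 54.1% of sham in cortex and 37.5% in thalamus, at log2 fold changes of −0.91 (SE 0.124, limma adjusted p = 0.000126) and −1.43 (SE 0.127, limma adjusted p = 2.05e-06).

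Ina encodes alpha-internexin, the filament protein that appears early in neuronal development and joins the mature filament as a further subunit. It was listed on chromosome 1 at 274212014 to 274224817. Its RefSeq promoter on GRCr8, a build other than that of the files, is chr1:255837879-255838178 on the plus strand. It is shown because Ina is the neurofilament gene whose promoter was in the reference table, and capitals mark the matches to the GC box GGGCGG on either strand.

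Ina: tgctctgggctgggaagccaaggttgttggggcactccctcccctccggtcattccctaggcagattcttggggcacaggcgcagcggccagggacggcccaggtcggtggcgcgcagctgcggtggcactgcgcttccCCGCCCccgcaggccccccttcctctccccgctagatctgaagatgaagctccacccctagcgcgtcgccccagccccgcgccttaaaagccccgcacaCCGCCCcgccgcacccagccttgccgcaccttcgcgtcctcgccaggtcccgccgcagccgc

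The promoter of 300 bases spans the annotated start and held 2 GC box matches and no match to TATAAA or to the AP-1 letters TGANTCA. Among 33469 rat promoters of that length 33.1% hold a GC box match, 14.2% TATAAA and 7.33% TGANTCA. The letters were searched on both strands, no match overlapped another, and a match describes the sequence, not binding. Ina had lowest, median and highest values of 9224, 10006 and 11584 in TBI cortex and 13122, 13642 and 14232 in sham cortex, and of 9891, 12119 and 12777 in TBI thalamus and 17210, 19891.5 and 22946 in sham thalamus. No TBI library reached a sham library. Its TBI mean was 74.5% of sham in cortex and 59.1% in thalamus, at log2 fold changes of −0.43 (SE 0.056, limma adjusted p = 8.8e-05) and −0.76 (SE 0.080, limma adjusted p = 9.35e-06).

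**Figure D1:**
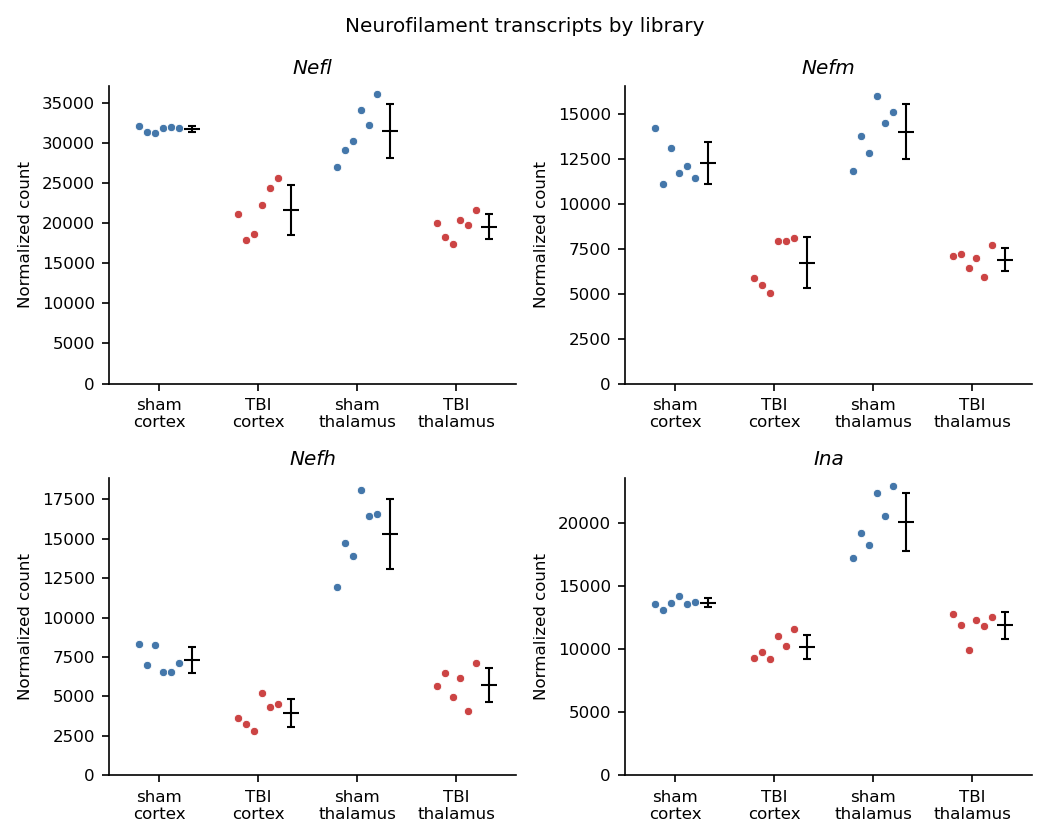
Normalized count (linear axis from 0) of Nefl, Nefm, Nefh and Ina in each of the 24 libraries, with the mean and SD of each group of 6 beside the points. In each panel the TBI libraries of a region lie below all its sham libraries, and the widest gap is that of Nefh in thalamus.

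Complete separation of all 6 TBI values below all 6 sham values was seen in 5.45% of tested loci in cortex and in 10.7% in thalamus. It held for 5 of the 10 genes in cortex (the neurofilament genes and Map1b) and for 5 of the 9 tested in thalamus (the neurofilament genes and Tubb3). Only 33 of 15493 loci in cortex had a lower log2 fold change than Nefh and 38 a lower one than Nefm. In thalamus 21 of 15564 loci were lower than Nefh and 97 lower than Nefm. Among loci with a mean of at least 1000 normalized counts, 3 of 7290 lay below Nefh in cortex and 5 of 7303 in thalamus. In TBI cortex, rats 22, 24 and 45 had the 3 lowest values of Nefl, Nefm, Nefh and Ina, so the spread of that group was shared by the 4 genes. In TBI thalamus the lowest rat was 45 for Nefl and Ina and 56 for Nefm and Nefh.

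The neurofilament transcripts did not fall in equal measure. The ratio of each to Nefl within a library does not depend on the scaling between libraries. Nefm was 30.8% of the Nefl value in TBI cortex and 38.6% in sham cortex (geometric means, n = 6 each), a log2 difference of −0.33 by an exact two-sided permutation test (p = 0.00433, adjusted over the 6 ratios p = 0.00866). In thalamus it was 35.2% after TBI and 44.5% in sham-operated rats, a log2 difference of −0.34 (exact permutation p = 0.00216, adjusted p = 0.00649), and all 6 TBI ratios lay below all sham ratios. The p of 0.00216 is the smallest that 6 against 6 libraries can give. Nefh fell more steeply than Nefl as well. It was 18.0% of Nefl in TBI cortex against 22.9% in sham cortex, a log2 difference of −0.34 (exact permutation p = 0.013, adjusted p = 0.0195). In thalamus the share was 28.9% against 48.4%, a log2 difference of −0.74 (exact permutation p = 0.00216, adjusted p = 0.00649), again with no overlap between groups. Ina went the other way in cortex, at 47.3% of Nefl after TBI against 43.0%, a log2 difference of 0.14 (exact permutation p = 0.039, adjusted p = 0.0468) that was lost in 9 of the 12 fits that left out 1 library, with adjusted p from 0.0571 to 0.0779 in these. In thalamus its ratios were 60.6% and 63.8%, a log2 difference of −0.074 that did not pass (exact permutation p = 0.0758, adjusted p = 0.0758), except without TBI rat 24 (exact permutation, adjusted p = 0.039) or sham rat 34 (0.0476). The values of these genes were not divided by transcript length, so the percentages compare groups and not the amounts of the chains.

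**Figure D2:**
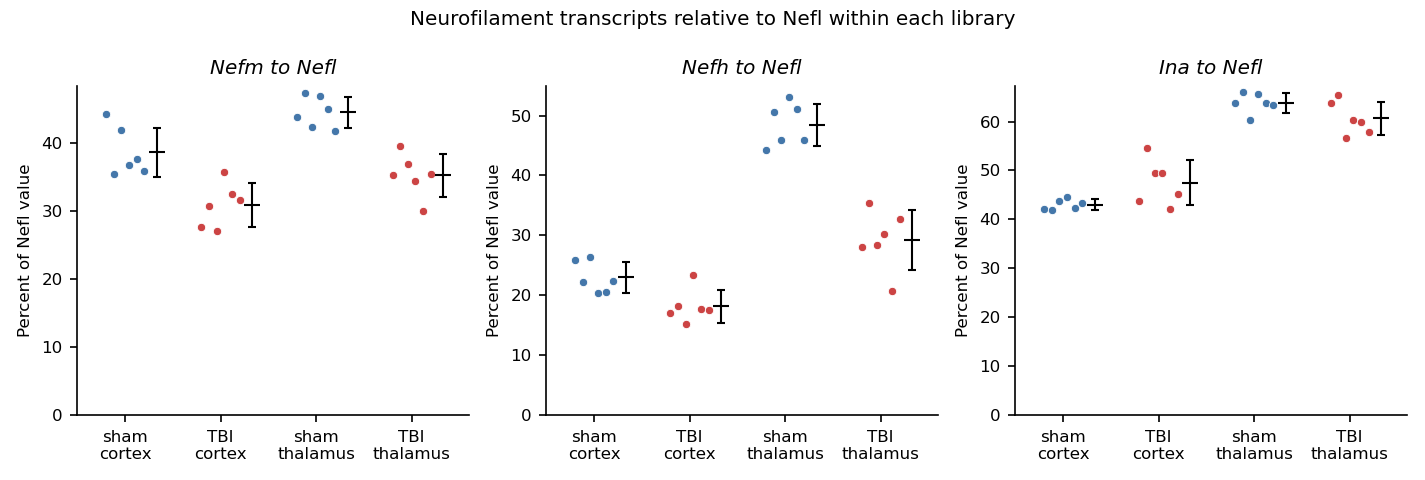
Nefm, Nefh and Ina as a percent of the Nefl value of the same library (linear axis from 0), by library with the mean and SD of each group of 6. Nefm and Nefh make up less of the Nefl value after TBI in both regions, most clearly Nefh in thalamus, at geometric means of 28.9% against 48.4%. Ina makes up more in cortex (47.3% against 43.0%) and 60.6% against 63.8% in thalamus, which did not pass.

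Of the microtubule genes, Map1b fell in both regions, Map2 in cortex, Tubb3 in thalamus and Stmn2 in neither. Map2, the protein that bundles microtubules in dendrites, was listed on chromosome 9 at 73837435 to 74095428. Its lowest, median and highest values were 55688, 61551 and 67991 in TBI cortex and 65435, 75533 and 80972 in sham cortex. 4 of the 6 TBI libraries lay below every sham library and rats 22 and 63 overlapped with them. Its mean after TBI was 82.5% of sham, a log2 fold change of −0.28 (SE 0.065, limma adjusted p = 0.00554). Under scaling to neuronal markers this fold change was −0.014 (limma adjusted p = 0.863). In thalamus the values were 33363, 34339 and 37666 after TBI and 31585, 36965.5 and 38774 in sham-operated rats, which overlapped widely, at a log2 fold change of −0.061 (SE 0.057, limma adjusted p = 0.439).

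Map1b supports microtubules in growing and adult axons and was listed on chromosome 2 at 48837053 to 48930483. Its RefSeq promoter is shown because the gene fell in both regions. It lies at chr2:32644422-32644721 of GRCr8 on the minus strand, is written 5′ to 3′ along the gene, and holds 1 match to TATAAA (capitals) that begins 48 bases before the start, and no AP-1 or GC box match.

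Map1b: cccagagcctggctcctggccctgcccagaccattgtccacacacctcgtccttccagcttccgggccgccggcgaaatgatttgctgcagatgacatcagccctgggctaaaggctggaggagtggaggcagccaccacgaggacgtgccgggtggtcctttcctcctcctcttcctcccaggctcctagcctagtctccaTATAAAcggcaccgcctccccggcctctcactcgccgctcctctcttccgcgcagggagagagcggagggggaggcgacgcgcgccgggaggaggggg

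In cortex the lowest, median and highest Map1b values were 47302, 50104 and 52795 after TBI and 57093, 62935 and 66061 in sham-operated rats, without overlap. Injured rats had 80.4% of the sham mean, a log2 fold change of −0.31 (SE 0.046, limma adjusted p = 0.000217). This cortical value was −0.050 under scaling to neuronal markers (limma adjusted p = 0.434). The thalamus values were 53449, 69099 and 74115.5 after TBI and 65504, 94147 and 105951 in sham-operated rats. Overlap there came from sham rat 32, whose library was the lowest of its group. The TBI mean was 73.5% of sham, a log2 fold change of −0.44 (SE 0.117, limma adjusted p = 0.00999) that was 0.038 under scaling to neuronal markers, and without the filter on low values the adjusted p was 0.0613.

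Tubb3, the neuronal beta-tubulin, was listed on chromosome 19 at 66931872 to 66940929 and shares much of its coding sequence with other beta-tubulins, which read counting can split unevenly. The lowest, median and highest values were 15765, 20626 and 23732 in TBI thalamus and 26327, 26930.3 and 29252 in sham thalamus, without overlap. The TBI mean was 73.7% of sham, a log2 fold change of −0.45 (SE 0.089, limma adjusted p = 0.00126) that was 0.020 under scaling to neuronal markers. In cortex the groups lay within each other at 10954 to 14672 after TBI and 11677 to 15161 in sham-operated rats, with a log2 fold change of −0.10 (SE 0.077, limma adjusted p = 0.338).

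Stmn2 encodes a stathmin that binds tubulin in growth cones and is needed to maintain motor axons. It was listed on chromosome 2 at 115167505 to 115215213. Cortex values ran from 12467 to 14456 after TBI and from 12924 to 15263 in sham-operated rats, and thalamus values from 11695 to 17198 and from 15590 to 16782. The TBI groups were lower in mean, at 90.5% of sham in cortex and 92.7% in thalamus, and neither difference passed. The log2 fold changes were −0.14 (SE 0.056, limma adjusted p = 0.0651) and −0.12 (SE 0.075, limma adjusted p = 0.24). The cortical value passed when the library of TBI rat 56 (limma adjusted p = 0.0384), of TBI rat 63 (0.0253) or of sham rat 32 (0.0221) was left out.

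Gap43, the growth-associated protein of growth cones and presynaptic endings, fell in both regions. It was listed on chromosome 11 at 62760586 to 62871000. Lowest, median and highest values in cortex were 7523, 8693 and 10226 after TBI and 9932, 10391 and 11135 in sham-operated rats. The values in thalamus were 12566, 15927 and 18168 and 18003, 18610 and 19952. In each region 5 of the 6 TBI libraries lay below every sham library, the exceptions being rat 24 in cortex and rat 56 in thalamus. On average, TBI rats had 83.3% of the sham value in cortex and 84.0% in thalamus, at log2 fold changes of −0.27 (SE 0.065, limma adjusted p = 0.00649) and −0.26 (SE 0.074, limma adjusted p = 0.0141). Under scaling to neuronal markers they were −0.006 in cortex (limma adjusted p = 0.94) and 0.21 in thalamus. The thalamic call was lost in edgeR with TMM scaling (adjusted p = 0.0516).

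Sprr1a had low counts in every library, above the floor in all cortex libraries and under it in all thalamus libraries. It was listed on chromosome 2 at 212200402 to 212200861. Its promoter, at chr2:180752576-180752875 of GRCr8 on the minus strand, is shown because AP-1 factors are known to drive this gene in injured neurons, and capitals mark 2 matches to the AP-1 letters TGANTCA, the first of them 147 bases before the start, 1 to TATAAA 46 bases before it, and 1 to GGGCGG.

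Sprr1a: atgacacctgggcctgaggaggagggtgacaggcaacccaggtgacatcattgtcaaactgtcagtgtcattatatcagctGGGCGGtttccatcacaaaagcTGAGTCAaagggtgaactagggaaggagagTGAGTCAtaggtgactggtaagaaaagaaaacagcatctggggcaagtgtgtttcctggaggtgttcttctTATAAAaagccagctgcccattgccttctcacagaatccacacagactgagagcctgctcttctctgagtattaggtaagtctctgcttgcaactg

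In TBI cortex Sprr1a had 5.68, 11.2 and 12.5 normalized counts as its lowest, median and highest values, and in sham cortex 6.60, 11.6 and 23.2. These came from 7 to 15 fragments a library after TBI and 7 to 27 in sham-operated rats, and the groups overlapped throughout. The log2 fold change was −0.15 (SE 0.297, limma adjusted p = 0.731), and it was 0.041 without the cortex library of sham rat 32. In thalamus 1 fragment was counted in TBI rat 52 and 1 in sham rat 26 and none in the other 10 libraries, and the gene was below the filter of a mean of 10 normalized counts. No difference of Sprr1a after TBI was detected in cortex, and in thalamus its level was at the limit of the depth. Sprr1a was thus counted in all 12 cortex libraries and in 2 of 12 thalamus libraries, and markers of meninges also differed between the regions. The summed level of 8 genes of meningeal fibroblasts such as Col1a1 and Slc22a6 was 19946.8 to 51973.8 in TBI cortex, 13075.5 to 19309.7 in sham cortex and 2174 to 10667 in thalamus apart from TBI rat 45 with 47894.9, and none of the 8 was at 0 in any group. Summed keratinocyte genes such as Krt14 and Dsp were 262 to 426 in cortex and 235 to 585 in thalamus, with 1 of 8 at 0 throughout TBI cortex and 2 of 8 at 0 throughout each of the other groups. The part of these cells in the Sprr1a value was not tested.

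**Figure D3:**
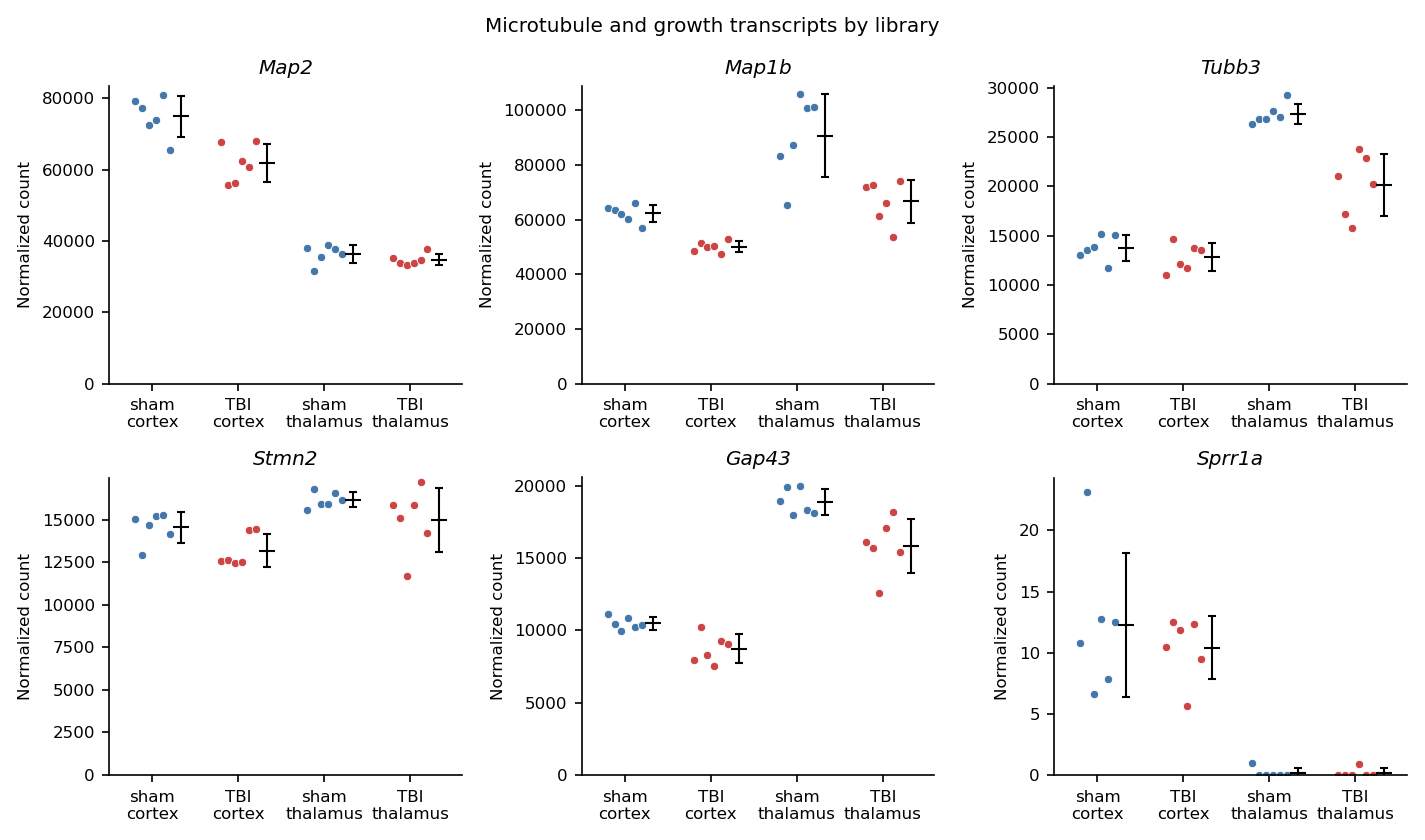
Normalized count (linear axis from 0) of Map2, Map1b, Tubb3, Stmn2, Gap43 and Sprr1a in each of the 24 libraries, with the mean and SD of each group of 6. With the deposited scaling Map1b in cortex and Tubb3 in thalamus separate TBI from sham (under scaling to neuronal markers Map1b in cortex is at −0.050 on the log2 scale and Tubb3 in thalamus at 0.020), the Stmn2 groups overlap, and Sprr1a is at 0 in 10 of 12 thalamus libraries.

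Neuronal markers fell along with these genes. Of 16 pan-neuronal and transmitter markers such as Rbfox3, Syt1 and Gad1, 11 fell in cortex and 15 in thalamus and none rose, with medians of −0.26 and −0.42 on the log2 scale. Their summed level was 397439 to 478495 in TBI cortex against 507557 to 533398 in sham cortex, and 267914 to 349106 in TBI thalamus against 398146 to 475936 in sham thalamus. None of the 16 was at 0 in any group. In tissue RNA fewer neurons and less RNA in each neuron cannot be told apart. Of 12 microglial markers, 11 rose in cortex and all 12 in thalamus, their summed level being 19402.3 to 23432.7 and 30343.8 to 39933.3 after TBI against 13203.9 to 14345.5 and 14709.9 to 19478.2 in sham-operated rats. All 8 meningeal fibroblast markers rose in cortex (log2 fold changes of 0.72 to 0.94) and none passed in thalamus, and their part in the cortical falls was not tested. Of 9 astrocytic markers, 5 rose and 2 fell in cortex, and 5 rose and none fell in thalamus. Beside these marker counts, 14.9% of all tested loci fell and 14.3% rose in cortex, and 20.9% fell and 14.5% rose in thalamus.

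When each library was scaled to the mean log2 value of its 16 neuronal markers, the median log2 fold change of all loci moved to 0.25 in cortex and 0.45 in thalamus, and the share of calls that were lower dropped to 2.14% and 1.75%. All 4 neurofilament genes remained lower in both regions under that scaling, where 1.25% of loci were lower in cortex and 1.36% in thalamus. Their log2 fold changes in cortex were then −0.30 for Nefl (limma adjusted p = 0.000904), −0.63 for Nefm (0.000197), −0.64 for Nefh (0.000366) and −0.16 for Ina (0.00701). In thalamus they were −0.21 for Nefl (0.00862), −0.55 for Nefm (7.96e-05), −0.95 for Nefh (2.59e-05) and −0.28 for Ina (0.000888). The second Nefm locus did not remain lower, at 0.0063 in cortex (limma adjusted p = 0.945) and 0.23 in thalamus (0.00606). In thalamus it was thus called higher, where 76.4% of all loci were higher. At the loci used, the neurofilament transcripts fell by more than the mean of the neuronal markers.

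The other genes lost their calls or turned with that scaling. In cortex Map2 (−0.014), Map1b (−0.050) and Gap43 (−0.006) no longer passed, and Tubb3 (0.16), Stmn2 (0.12) and Sprr1a (0.088) turned positive without passing. In thalamus Map2 (0.41, limma adjusted p = 9.9e-05), Stmn2 (0.36, 0.000177) and Gap43 (0.21, 0.00391) were higher, where 76.4% of all loci were higher, and each of these 3 lay below the median of all loci. Map1b (0.038) and Tubb3 (0.020) turned positive without passing. No microtubule or growth gene passed as lower under that scaling.

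**Figure D4:**
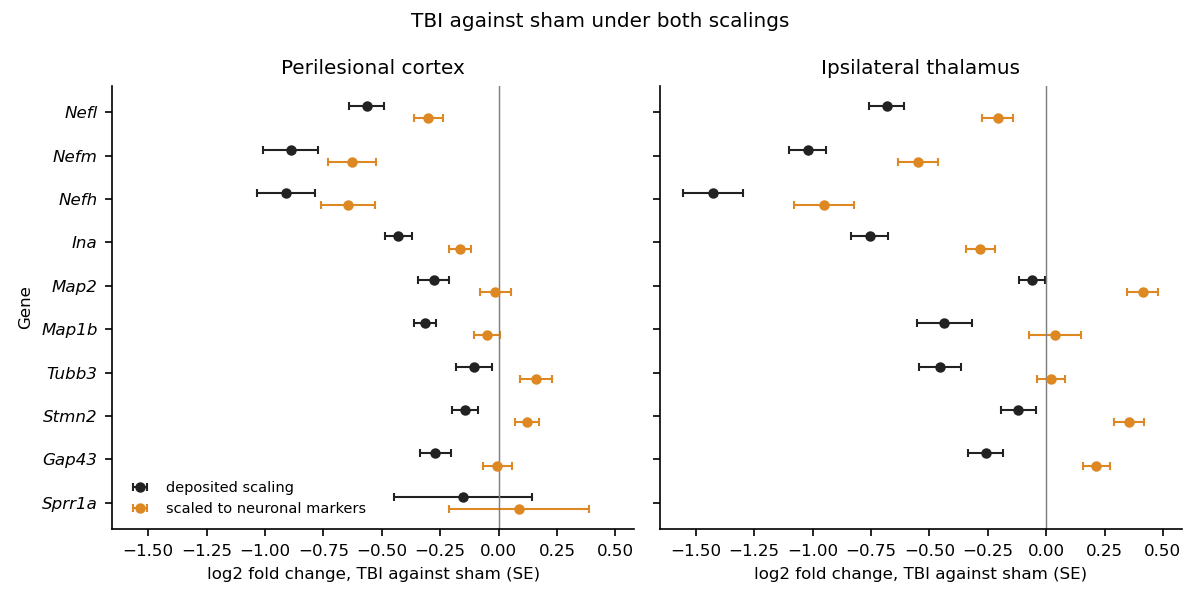
Log2 fold change of TBI against sham with its standard error for each gene in cortex and thalamus, with the deposited scaling and with each library scaled to its neuronal markers. The neurofilament genes stay below 0 under both scalings in both regions, whereas Map2, Map1b, Tubb3, Stmn2 and Gap43 in thalamus and Tubb3, Stmn2 and Sprr1a in cortex lie below 0 under the first, not all past the test, and above 0 under the second.

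A test of the interaction between injury and region, over the 24 libraries together, asked whether the effect differed between cortex and thalamus. In it 7.26% of 15678 loci passed, 62.5% of them with the lower effect in thalamus (48.1% in edgeR with TMM scaling and 8.85% with scaling to neuronal markers). The 16 neuronal markers had a median difference of −0.19 themselves, which that scaling carries into the other genes. Ina was the one gene of the 9 tested to pass, with an effect in thalamus that was lower by 0.33 on the log2 scale (difference −0.33, SE 0.10, limma adjusted p = 0.0462). With the rat as a block this difference passed too (limma adjusted p = 0.0214). It was lost in 16 of the 24 fits that left out 1 library, which were those without any 1 of the 6 sham cortex libraries, the TBI cortex libraries of rats 24, 52, 56 and 63, the TBI thalamus libraries of rats 24, 45 and 56 or the sham thalamus libraries of rats 38, 50 and 55. Without rat 45 the adjusted p was 0.0507. The call was also lost under upper quartile scaling (limma adjusted p = 0.0699), without the filter (0.0936) and in edgeR with TMM (0.0727), and under scaling to neuronal markers the difference shrank to −0.12 (0.257). For Nefh the difference was −0.52 (SE 0.191, limma adjusted p = 0.1) and for Tubb3 −0.35 (SE 0.123, limma adjusted p = 0.084). Nefh passed without the cortex library of TBI rat 45 (limma adjusted p = 0.0428), and Tubb3 without that of TBI rat 22 (0.0493) or the thalamus library of TBI rat 52 (0.0378). Map2 had a difference of 0.22 in the other direction (SE 0.087, limma adjusted p = 0.134), which became 0.43 and passed under scaling to neuronal markers (limma adjusted p = 0.00584). With the deposited scaling its fall in cortex was not shown to differ from its value in thalamus. Differences for Nefl, Nefm, Map1b, Stmn2 and Gap43 lay between −0.13 and 0.025, with limma adjusted p from 0.576 to 0.968, and under scaling to neuronal markers those of Nefl, Nefm and Map1b turned positive and that of Stmn2 passed (0.24, limma adjusted p = 0.0435).

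The levels of the genes in the uninjured regions were compared between thalamus and cortex of sham-operated rats, where 33.9% of 15582 loci were higher and 28.3% lower in thalamus (31.96% of calls lower under scaling to neuronal markers against 45.5%). Of the 16 neuronal markers themselves, 6 were higher and 7 lower in sham thalamus, so scaling to them carries their own differences between the regions. Of the 9 genes tested, 7 were higher in thalamus and Map2 was lower. Nefh was 15296 ± 2209 in sham thalamus and 7296 ± 808 in sham cortex (SD, n = 6 each), a log2 difference of 1.06 (limma adjusted p = 7.33e-08). Tubb3 was higher by 1.00 (limma adjusted p = 5.66e-10), Gap43 by 0.85 (8.17e-11), Ina by 0.55 (1.8e-06), Map1b by 0.53 (0.000191) and Stmn2 by 0.15 (0.00752). For Nefh, Tubb3, Gap43, Ina, Stmn2 and Map2 the sham regions did not overlap. The share of all loci without overlap between the regions was not counted. Map2 was the lower one, at 36302 ± 2581 in sham thalamus and 74890.3 ± 5621 in sham cortex, a log2 difference of −1.04 (limma adjusted p = 5.36e-10). Nefm was higher by 0.19 (limma adjusted p = 0.0421), a call that was lost with the rat as a block (0.0858), under TMM (0.086) and upper quartile scaling (0.053), without the filter (0.113), in edgeR with TMM (0.0843) and in 8 of the 12 fits that left out 1 library, so that 6 genes were higher in these. The second Nefm locus went the other way and was lower in thalamus (−0.47, limma adjusted p = 2.82e-07), as it was in TBI rats (−0.46, 7.8e-05). Nefl did not differ beyond its spread (−0.019, limma adjusted p = 0.802).

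The same comparison in TBI rats gave smaller differences for Nefh and Ina, and the change of the difference passed the interaction test for Ina, not for Nefh. Of 15737 loci 31.0% were higher and 26.5% lower in the thalamus of TBI rats (17.3% of calls lower under scaling to neuronal markers against 46.2%), and 5 of the 9 genes were higher and Map2 lower. Nefh was 5734 ± 1089 in TBI thalamus and 3949 ± 877 in TBI cortex (SD, n = 6 each), a log2 difference of 0.54 (limma adjusted p = 0.0071). Ina was higher by 0.22 (0.0178), Tubb3 by 0.65 (8.06e-05), Map1b by 0.40 (0.000447) and Gap43 by 0.86 (1.23e-06), and Map2 was lower (log2 difference −0.83, limma adjusted p = 3.61e-08). Nefm (0.057, limma adjusted p = 0.714) and Nefl (−0.14, 0.204) did not differ beyond their spread, although under scaling to neuronal markers both were higher in thalamus (0.39 and 0.19). Of the 16 markers behind that scaling, 3 were higher and 9 lower in the thalamus of TBI rats. Stmn2 (0.18, limma adjusted p = 0.0782) passed with the rat as a block (0.0447), and also without the thalamus library of rat 45 (0.00335). For Nefh the order of the groups was sham thalamus, sham cortex, TBI thalamus and TBI cortex, and sham cortex (6524 to 8349.7) and TBI thalamus (4081 to 7109.6) overlapped as neighbours. The order for Ina was the same, and its sham cortex (13122 to 14232) lay above TBI thalamus (9891 to 12777). Gap43 and Tubb3 had both thalamus groups above both cortex groups, and Map2 had both below, without overlap between the regions. How many of all loci show such an order was not counted.

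Further lists of related genes, 7 in all, give the setting of these changes, and the members of each are counted as for the genes above. Their shares stand beside those of all tested loci, 14.9% lower and 14.3% higher in cortex and 20.9% and 14.5% in thalamus. Among 11 other tubulins, 2 (18.2%) fell and 1 rose in cortex and 8 fell and 1 rose in thalamus. Their median log2 fold changes were −0.053 and −0.23, and 0.21 and 0.24 under scaling to neuronal markers. Tuba4a, an alpha-tubulin of mature neurons, fell by 0.28 on the log2 scale in cortex (limma adjusted p = 0.00309) and by 0.43 in thalamus (0.000477). Tubb4b fell in cortex (−0.18, 0.0241) and Tubb2b in thalamus (−0.43, 0.00348), and under scaling to neuronal markers Tubb4b (0.088) and, in thalamus, Tuba4a (0.045) and Tubb2b (0.044) turned positive. Tuba4a in cortex was then at −0.013 and did not pass (limma adjusted p = 0.832). Tubb6, a beta-tubulin found outside neurons too, was 352.6 ± 93.4 in TBI cortex and 219 ± 36.8 in sham cortex and rose by 0.67 in cortex (0.00409) and 0.65 in thalamus (0.02).

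Of 26 other microtubule-associated genes, 11 fell and 1 rose in cortex and 17 fell and 2 rose in thalamus, with medians of −0.11 and −0.25 (0.15 and 0.22 under scaling to neuronal markers). In cortex the largest falls were those of Ttll7, a tubulin polyglutamylase (−0.44, limma adjusted p = 0.000171), and Map7d2 (−0.41, 4.73e-05), and the rise was that of Dpysl3, a collapsin response mediator (0.30, 0.0284), which fell in thalamus (−0.22, 0.0405, but 0.26 on the log2 scale under scaling to neuronal markers). In thalamus the largest falls were those of Ttbk1, a tau kinase (−0.60, 1.36e-05), and Map1a, a close relative of Map1b (−0.52, 0.000385). Under scaling to neuronal markers Ttbk1 (−0.13, limma adjusted p = 0.124) and Map1a (−0.041, 0.62) did not pass in thalamus. Ttll7 (−0.17, 0.0164) and Map7d2 (−0.15, 0.0128) stayed lower in cortex under it. The rises in thalamus were those of the plus-end binding Mapre1 (0.17, 0.00296) and of Dcx, the doublecortin of migrating neurons (0.29, 0.0438).

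Axonal transport genes passed the test in 1 direction, with 14 of 20 lower in cortex and 15 of 20 in thalamus and none higher, at medians of −0.18 and −0.24 that turned to 0.086 and 0.24 under scaling to neuronal markers. The list holds kinesins, dyneins and their adaptors. Kif5a, a kinesin heavy chain of neurons that carries neurofilaments, was 48367 ± 7824 in TBI thalamus and 75209.9 ± 5796 in sham thalamus (SD, n = 6 each) and fell by 0.65 on the log2 scale there (limma adjusted p = 0.000241) and by 0.33 in cortex (0.00101). Its relative Kif5c fell in cortex (−0.34, 0.000203) and the kinesin light chain Klc2 in thalamus (−0.59, 5.41e-05). None of these falls passed under scaling to neuronal markers. Kif5a was then at −0.18 in thalamus (limma adjusted p = 0.0546) and −0.065 in cortex (0.387). Kif5c was at −0.078 in cortex (0.204) and Klc2 at −0.11 in thalamus (0.0652).

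Of 18 growth cone and actin genes, 7 fell and 2 rose in cortex and 4 fell and 5 rose in thalamus, with medians of −0.096 and −0.032 (0.17 and 0.44 under scaling to neuronal markers, and 0.017 in thalamus under TMM). Their shares of 11.1% higher in cortex and 22.2% lower in thalamus were near those of all loci. Cttn (−0.46, limma adjusted p = 0.0443) and the neuronal profilin Pfn2 (−0.34, 0.023) fell in cortex, and Dbn1, the drebrin of dendritic spines (−0.43, 0.000278), and Cap2 (−0.38, 0.000697) in thalamus, these last turning to 0.047 and 0.097 under scaling to neuronal markers. In cortex Cttn (−0.20, limma adjusted p = 0.305) and Pfn2 (−0.077, 0.474) did not pass under that scaling. Cttn also lost its call under upper quartile scaling (limma adjusted p = 0.0605). Vasp, an actin elongation factor of many cell types, rose in both regions (0.42, 0.000629, and 0.59, 3.01e-05). Marcksl1 rose in cortex (0.38, 0.00169) and Tmsb10, a thymosin that binds actin monomers, in thalamus (0.57, 7.35e-06).

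With the deposited scaling more regeneration-associated genes rose than fell, while Gap43 fell. Under scaling to neuronal markers Gap43 was at −0.006 in cortex, which did not pass, and was higher in thalamus (0.21). Of 18 regeneration-associated genes measured, 8 rose and 1 fell in cortex and 10 rose and 1 fell in thalamus with the deposited scaling. Their medians were 0.30 and 0.36 (0.56 and 0.83 under scaling to neuronal markers). Hspb1, a small heat shock protein of astrocytes, vessels and injured neurons, was 672 ± 281 in TBI cortex and 227 ± 59 in sham cortex and rose by 1.501 (limma adjusted p = 0.000388), and by 2.10 in thalamus (4.41e-07). The neuropeptide gene Gal was 68.3 ± 23.4 against 15.5 ± 4.52 in cortex and rose by 2.03 there (7.49e-05). Socs3, an inhibitor of cytokine signalling that is present in glia as well, rose by 1.92 in thalamus (3.45e-06). Adcyap1 fell in cortex (−0.45, 0.00562) and Klf7, at a locus whose name joins 2 spellings, in thalamus (−0.16, 0.0185). Under scaling to neuronal markers Adcyap1 was at −0.19 in cortex and did not pass (limma adjusted p = 0.101), and Klf7 was at 0.31 in thalamus. Several of these genes are expressed by glia and vessels as well as neurons, and the cells behind the rises were not tested.

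Of the axon degeneration genes, 2 of 12 were lower and 1 higher in cortex, and 6 were lower and 1 higher in thalamus, at medians of −0.021 and −0.18 (0.24 and 0.29 under scaling to neuronal markers). The cortical shares of 16.7% lower and 8.33% higher were near or below those of all loci. Nmnat2, the short-lived enzyme that keeps axons intact, fell by 0.19 in cortex (limma adjusted p = 0.0248, but 0.077 on the log2 scale under scaling to neuronal markers) and by 0.53 in thalamus (0.000973), and Fbxo45 fell in cortex (−0.28, 0.00429). Under that scaling Nmnat2 in thalamus (−0.053, limma adjusted p = 0.533) and Fbxo45 in cortex (−0.017, 0.817) did not pass. Capn1, a calcium-activated protease that cleaves neurofilaments, rose in cortex (0.31, 0.0143) and fell in thalamus (−0.32, 0.000971), where it was 0.16 under scaling to neuronal markers. The calpain inhibitor Cast rose in thalamus (0.32, 0.00569).

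Of the 5 other intermediate filament genes, 3 rose in each region and none fell, with medians of 0.69 and 1.28. Gfap, the filament of astrocytes, was 59944 ± 13737 in TBI cortex and 12344 ± 1777 in sham cortex, and 103947 ± 10477 in TBI thalamus and 22021 ± 4545 in sham thalamus (SD, n = 6 each). It rose by 2.26 in both regions (limma adjusted p = 4.85e-07 in cortex and 2.33e-08 in thalamus). Vim rose by 1.47 in cortex (2.33e-05) and Nes by 1.35 in thalamus (2.43e-05). Prph, the peripherin of peripheral neurons, did not pass in cortex (0.069, 0.778) or thalamus (0.029, 0.93). The neurofilament falls and the Gfap rise thus stood side by side in the same libraries.

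**Figure D5:**
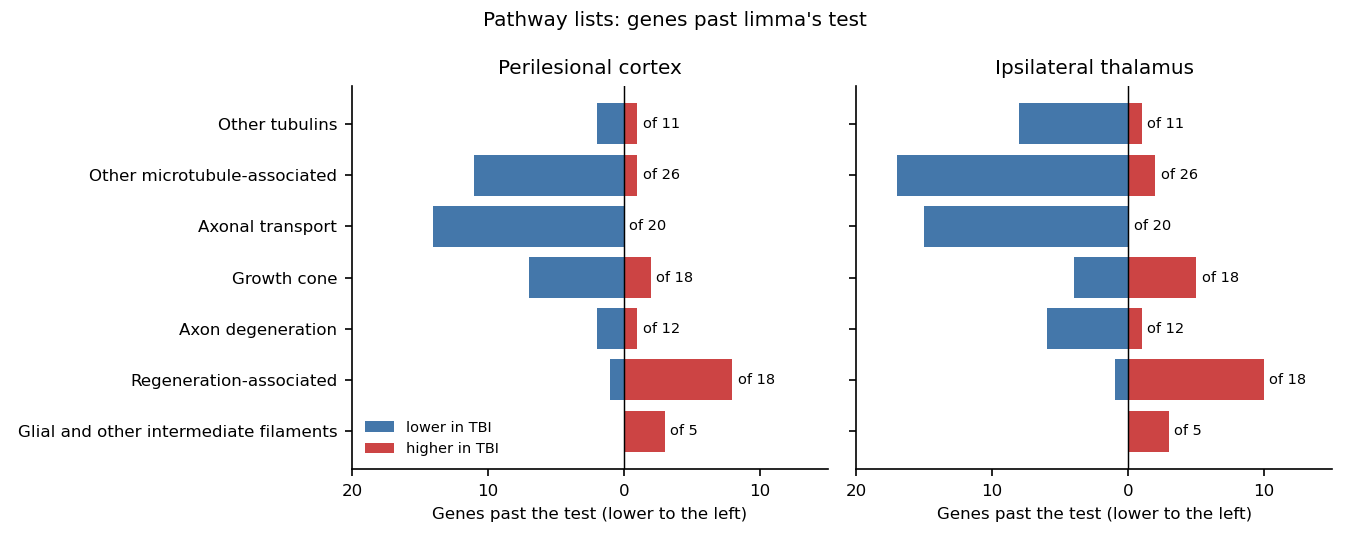
Number of genes past limma's test in 7 lists, those lower after TBI to the left of 0 and those higher to the right, with the number tested printed beside each bar. Axonal transport genes lie wholly to the left (14 and 15 of 20) with the deposited scaling, whereas 5 and 14 are higher under scaling to neuronal markers, and the remaining intermediate filament genes wholly to the right (3 of 5 in each region).

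Genes that varied with a member from library to library were named from the 3 highest Pearson correlations over the 24 libraries, after the mean of each group was subtracted, among 13760 loci with a mean of at least 50. These are descriptions, since the libraries share depth and tissue composition. Nefm and Nefh were each among the nearest of the other (r = 0.911). The rest were Vamp1 (0.871) and Syt2 (0.854) for Nefm, and Syt2 (0.915) and Sema7a (0.874) for Nefh. Vamp1 and Syt2 encode proteins of synaptic vesicle release. The 6 pairs of neurofilament genes had r from 0.660 to 0.911. For Nefl the nearest were Snap25 (0.856), a neuronal marker, Grid2ip (0.851) and NKIRAS1 (0.844), and for Ina they were Epb41l3 (0.889), NKIRAS1 (0.889) and Ppp1r3e (0.883).

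Other neighbours came from different sets. Tubb3 varied with Uchl1 (0.962), a neuronal marker too, Fdps (0.941) and Acot7 (0.939). Map1b varied with Plxna4a (0.948) and Herc2 (0.939), and Map2 with 9330182L06Rik (0.930), Ttc33 (0.878) and Acbd5 (0.866). The nearest of Stmn2 were Sfxn3 (0.953), Zwint (0.931) and Necap1 (0.928), and those of Gap43 were Ngfrap1 (0.908), Rrp7a (0.902) and Entpd6 (0.889). Sprr1a, at its low counts, reached 0.768 with Cacnb1, 0.766 with Mast3 and 0.760 with Gna11.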

How the data were processed

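Messenger RNA was measured in 24 libraries of 12 rats. Per the labels and the methods, the authors prepared strand-specific libraries of polyadenylated RNA, aligned reads with TopHat2 2.0.11 and Bowtie2 2.2.2, assembled transcripts with Cufflinks 2.2.1 and named Rnor 5.0 as annotation. The deposited values are a signal, fragment counts divided by the authors' size factors. Low values were whole multiples of 1 step in every library (100%, within 0.1 of a fragment), and 99.97% to 99.99% of all values were. Fragments were recovered from the step. The 15693 loci without a name held 1.90% to 2.23% of counts and were left out.

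TBI and sham libraries, 6 per group, were compared with the limma package (3.58.1, under R 4.3.3; lmFit, then eBayes with trend) on log2(normalized count + 1), for named loci with a mean of at least 10 in the libraries of the fit, with Benjamini-Hochberg adjustment over all tested loci and a threshold of 0.05. Ratios were tested by exact permutation in scipy 1.17.1. The unit called for no count test as the main one. edgeR 4.0.16 on the recovered fragments, chosen after seeing the data, called 4533 loci in cortex and 5481 in thalamus with the deposited scaling, and 4435 and 5122 with TMM, against 4531 and 5516 in limma. Other alternatives were TMM, upper quartile and neuronal-marker scaling, pseudocounts of 0.1 and 5, no filter, a mean of at least 50, limma-voom, a threshold of 0.01, the rat as block, leaving out each library, and leaving out rat 45.

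Regions of 1 rat share its number in the labels and are the same animal. After subtraction of the group means, both libraries of a rat correlated at 0.00393 to 0.569 (median 0.187), over 0.1 in 10 of 12 rats. On simulated data with 200 changed loci, the test in cortex (15500 loci) called 100% of those with a log2 change of 1 and 96% of those of 0.5, with 11 false calls. The interaction test (15678 loci) called 100% and 54%, with 7 false calls. The simulated counts had the same dispersion at every locus and no variation shared by the libraries of a rat. Only loci with a mean of at least 50 were changed. The spread of the real groups differed between genes, so these rates hold for the simulated data and not for each gene here.

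The members and lists were chosen with earlier results of these data known. All members were named, and per pathway list the 2 largest rises and falls past the threshold in each region, with marker genes named only as examples of their list. Figures were drawn with matplotlib 3.10.9. Promoters are from RefSeq (GRCr8), in which 5 of 10 genes were matched. A result of the marker lists and 1 of the correlations are not reported here.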

Additional observations from a re-analysis of the deposited data

Results flagged for a closer look

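Of 40 sets of 6 libraries, 1 per gene and group, 4 held a library whose gap to the next value was, as a part of the whole range, over Dixon's 95% critical value. Chance gives about 1 in 20 such sets where values are normally distributed, a rate that does not apply to sets with nearly all values at 0. Ina had 9891 normalized counts in the TBI thalamus library of rat 45, the library with the highest choroid plexus sum, against 11824 in the next lowest (gap 0.67 of the range). Without it the thalamic log2 fold change of Ina was −0.70, against −0.76 with it. Sprr1a had 23.2 in the cortex library of sham rat 32, against 12.8 in the next highest (gap 0.627 of the range). The other 2 were single fragments of Sprr1a, with 0.939 normalized counts in the thalamus of TBI rat 52 and 0.955 in that of sham rat 26, where the other libraries were at 0. The injury effect on Ina differed between thalamus and cortex by −0.33 on the log2 scale in limma's interaction test (adjusted p = 0.0462 over all loci, from 0.0197 to 0.257 over the alternatives).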

How the results depend on the processing

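Over 46 results on single genes and 1229 values under the alternatives, 1146 kept their direction and their side of the threshold, 43 lost the call, 13 gained one and 27 turned. The alternatives are not independent. A threshold of 0.01 reuses the main fit and cannot turn a direction. For the injury effect in each region, leaving out rat 45 is the same fit as leaving out its library and is counted again. In cortex and thalamus 7 genes remained called in every fit that left out 1 library (7 to 8 and 7 to 7). Scaling to neuronal markers called 4 of the genes in cortex, and 9058 loci in cortex, 12131 in thalamus and 2259 in the interaction. A threshold of 0.01 left 2436, 3429 and 404 loci. In the interaction 0 genes passed under upper quartile scaling, without a filter, in edgeR with TMM, at 0.01 or without rat 45, and 2 passed under neuronal-marker scaling, and 0 to 2 when 1 library was left out.

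Under neuronal-marker scaling the log2 fold change turned for Tubb3 (0.16), Stmn2 (0.12) and Sprr1a (0.088) in cortex and for Map2 (0.41), Map1b (0.038), Tubb3 (0.020), Stmn2 (0.36) and Gap43 (0.21) in thalamus. The interaction turned for Nefl (0.093), Nefm (0.079) and Map1b (0.088), and Nefl turned between regions in sham-operated (0.10) and TBI rats (0.19). Nefm between the regions of TBI rats was −0.0027 without rat 45. Leaving out 1 library also turned values near 0. Sprr1a in cortex ranged from −0.29 to 0.041, the interaction of Stmn2 from −0.017 to 0.094 and that of Gap43 from −0.031 to 0.076, Nefl between the regions of sham-operated rats from −0.060 to 0.024 and Nefm between those of TBI rats from −0.022 to 0.12. The log2 ratio of Ina to Nefl in cortex was 0.12 without rat 45 (adjusted p = 0.0935) and 0.095 to 0.17 with 1 library left out, and in thalamus −0.096 to −0.055, where it passed without TBI rat 24 or sham rat 34. The cause was not tested.

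With the rat as replicate block the interaction of Ina was −0.33 (limma adjusted p = 0.0214), Nefm between regions of sham-operated rats lost its call (0.0858), Stmn2 in TBI rats gained one (0.0447), and no other call changed. Leaving out rat 45 gives no new value in the comparison of sham regions. Depth limits Sprr1a alone, at 0 to 27 fragments a library.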
